A study of Mus musculus with 10 samples.

Results

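KLF3-ER binding in J2E cells was described by the whole deposited KLF3 peak list, taking every row. The list holds 4579 listed peaks in 4230 distinct intervals assigned to 3760 genes, of 7853 intervals in the 2 peak lists of the study. J2E is an immortalised erythroid line from mouse fetal liver, and J2E-KLF3-ER is that line carrying KLF3 fused to an estrogen receptor domain, which 4-hydroxytamoxifen activates. One KLF3 library was made from clone C after 3 hours in 200 nM 4-hydroxytamoxifen, with an antibody to the estrogen receptor and 3 pooled replicates, and 1 input library was made from the same cells. The binding was thus that of a fusion protein in 1 clone, and no library of untreated cells or of J2E without the fusion was used here for binding. RNA labelled for 30 minutes with 500 µM 4-thiouridine came from 3 J2E libraries without a transgene, of which 2 received tamoxifen and 1 received ethanol, and from 3 J2E-KLF3-ER libraries, 1 each of the clones A, C and E, all with tamoxifen. The KLF1 list used beside it came from tamoxifen-induced K1-ER cells, erythroblasts that lack Klf1 and carry a KLF1-ER transgene, clones A and C.

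KLF3 is a Krüppel-like factor, with 3 zinc fingers at its C-terminal end that recognise CACCC boxes and related GC-rich letters. It is known as a repressor that recruits the CtBP corepressors, and in red cell precursors its gene is a target of KLF1, the activator of the same family. Both factors recognise the same kind of site.

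The sequences show what the strongest bound promoters look like. The 5 genes with the highest promoter peaks among genes with a single promoter entry in the RefSeq table (GRCm38.p6) are given, each as 300 bases running from 250 before to 50 after the start, on the gene's strand. Capitals mark every CACCC box and every GC box (GGGCGG) on either strand, so that GGGTG and CCGCCC are the same boxes read from the other strand. Tob2 lies at chr15:81858277-81858576, Serac1 at chr17:6079690-6079989, Mapk9 at chr11:49846501-49846800, Slc3a2 at chr19:8713848-8714147 and Cggbp1 at chr16:64851751-64852050, with Tob2, Serac1 and Slc3a2 on the minus strand.
Tob2: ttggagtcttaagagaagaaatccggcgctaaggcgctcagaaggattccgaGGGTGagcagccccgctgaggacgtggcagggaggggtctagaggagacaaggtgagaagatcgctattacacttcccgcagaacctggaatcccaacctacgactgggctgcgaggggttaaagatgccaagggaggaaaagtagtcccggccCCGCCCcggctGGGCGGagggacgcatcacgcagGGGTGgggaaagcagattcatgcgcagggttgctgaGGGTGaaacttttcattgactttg
Serac1: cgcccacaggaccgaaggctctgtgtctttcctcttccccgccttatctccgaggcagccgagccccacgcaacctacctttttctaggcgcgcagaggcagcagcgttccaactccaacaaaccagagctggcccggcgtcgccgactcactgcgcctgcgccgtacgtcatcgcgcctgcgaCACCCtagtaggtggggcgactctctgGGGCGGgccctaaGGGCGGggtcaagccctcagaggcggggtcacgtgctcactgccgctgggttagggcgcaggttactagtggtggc
Mapk9: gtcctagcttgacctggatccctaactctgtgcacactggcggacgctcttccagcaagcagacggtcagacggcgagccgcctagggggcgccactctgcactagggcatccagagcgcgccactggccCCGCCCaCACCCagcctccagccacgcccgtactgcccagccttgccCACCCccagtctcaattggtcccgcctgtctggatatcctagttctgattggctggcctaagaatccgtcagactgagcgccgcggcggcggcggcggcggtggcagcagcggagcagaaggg
Slc3a2: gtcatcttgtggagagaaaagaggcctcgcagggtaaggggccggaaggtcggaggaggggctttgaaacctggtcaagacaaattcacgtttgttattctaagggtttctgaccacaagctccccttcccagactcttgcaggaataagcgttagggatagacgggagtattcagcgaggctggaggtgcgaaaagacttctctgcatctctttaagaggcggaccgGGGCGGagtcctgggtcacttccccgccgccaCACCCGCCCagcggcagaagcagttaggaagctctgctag
Cggbp1: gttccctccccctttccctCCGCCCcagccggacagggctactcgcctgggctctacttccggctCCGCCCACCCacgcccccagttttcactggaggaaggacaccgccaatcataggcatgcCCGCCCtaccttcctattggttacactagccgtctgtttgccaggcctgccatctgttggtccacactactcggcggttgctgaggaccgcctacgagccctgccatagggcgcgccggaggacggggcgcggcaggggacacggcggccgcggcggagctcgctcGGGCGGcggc

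All 5 hold both kinds of box, from 1 to 3 CACCC boxes and from 1 to 4 GC boxes. The KLF3 summit lay 43 bp before the start in Tob2, 39 bp before it in Serac1 and 94 bp before it in Mapk9. In Slc3a2 it lay 25 bp after the start, and in Cggbp1 222 bp before it. Counted from these offsets, the centre of the nearest capitalised box was 1.5 bp from the summit in Tob2, 2.5 bp in Serac1, 6.5 bp in Cggbp1, 9.5 bp in Slc3a2 and 17 bp in Mapk9. The offsets are the authors', on mm9, so these gaps hold only where both builds place the start alike.

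Bound promoters as a group held more of these letters than unbound ones. Of the tested genes with 1 promoter entry, 1305 had a KLF3 summit inside the 300-base window and 4200 had no KLF3 peak assigned to them. The latter are called unbound, although each peak was given to 1 gene only, so some may share a promoter with a bound neighbour. A GC box stood in 91.3% of the bound promoters (95% exact interval 89.6 to 92.7), in 57.7% (56.2 to 59.2) of the unbound ones and in 46.3% of all 14850 promoters of the table. CACCC stood in 69.0% (66.5 to 71.5), 55.4% (53.8 to 56.9) and 57.8%. CACGCCC, which joins the features of both boxes and was searched after the values of the others were seen, stood in 30.7% (28.2 to 33.2), 11.2% (10.3 to 12.2) and 10.9%. It contains neither of the other boxes, but can share end bases with either. The longer CCACACCC, which contains no GC box and has CACCC as its end, stood in 5.21%, 3.14% and 3.78%. Strings that belong to other factors showed smaller or opposite differences. AGATAA, the core letters of a GATA site, stood in 4.14% of bound, 6.88% of unbound and 10% of all promoters, and TATAAA in 4.37%, 8.36% and 13.9%. CCAAT stood in 37.6%, 41.7% and 39.6%, and the ETS letters CCGGAAG in 22.7%, 23.0% and 12%. The E box CACGTG, the NRF1 letters GCGCATGC, the YY1 letters AAGATGGC and the CRE letters TGACGTCA differed by less than 1 percentage point between bound and unbound promoters, with 8.04%, 3.65%, 3.44% and 2.36% of all promoters holding them.

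Base composition moved with these shares. The median GC content was 64.7% in bound and 59.0% in unbound promoters. Within promoters of 55 to 60% GC, a GC box stood in 84.5% of 220 bound and 51.5% of 876 unbound promoters, and CACGCCC in 27.7% and 10.6%. Within 65 to 70% GC, the GC box shares were 95.2% and 81.0%, those of CACGCCC 34.7% and 17.9%, and those of CACCC 69.0% and 63.3%. At 75% GC or more, where nearly every promoter has a GC box, its shares were 98.2% and 96.0%. The difference in GC box share was thus present at matched composition and narrowed as GC content rose. For CACCC the 95% exact intervals within 65 to 70% GC overlapped, at 64.0 to 73.6 and 59.2 to 67.3. Its shares were 69.5% and 55.9% within 55 to 60% GC and 73.2% and 63.6% within 70 to 75%. At 75% GC or more they were 68.4% and 66.1%.

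Of these 3 strings, CACGCCC varied most with peak height. Over 4 near-equal groups of the bound promoters by enrichment, its share was 26.3% in the lowest, 22.2% in the next, 30.2% in the one after and 43.9% in the highest (95% exact interval 38.4 to 49.4). The CACCC share was 69.8%, 70.7%, 66.0% and 69.6% over the same groups, and the GC box share went from 89.7% in the lowest to 93.6% in the highest. Median GC content did not rise over the groups, at 65.3% in both the lowest and the highest. All 3 strings were densest at the summit. GC boxes numbered 15.1 per 1000 positions within 25 bp of a summit and 4.16 at 175 to 200 bp. CACGCCC numbered 3.21 and 0.54, and CACCC 5.49 and 2.65. The longer CCACACCC was rarer and also densest at the summit, at 0.360 and 0.0497 (23 matches and 1). Of the strings of other factors, the CCAAT box numbered 2.04 and 1.59, the CRE letters 0.157 and 0.0497 (10 matches and 1) and the NRF1 letters 0.470 and 0. These were denser still at 25 to 50 bp, at 2.48, 0.196 and 0.556. The ETS letters (0.846 and 0.637) and the E box (0.595 and 0.343) were also lower at 175 to 200 bp. The GATA letters were nearly level (0.156 and 0.147), and TATAAA (0.0313 and 0.196) and the YY1 letters (0.125 and 0.149) went the other way. None of the strings of other factors was densest within 25 bp of the summit. The distal end of this range also has fewer positions, 20419 against 63918 for the GC box.

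Before the values of the RNA are used, the label of the cells was checked. Of 16 erythroid marker rows, all were tested by the authors and none was below 1 FPKM in both lines, although the row joining Hba-a1 and Hba-a2 was at 0.0208 FPKM in J2E beside 133 FPKM for the Hba-a2 row, which shares its sequence. All 13 lymphoid marker rows were below 1 FPKM in both lines, the highest at 0.801 FPKM in J2E. Of 12 myeloid, 10 megakaryocyte and 9 mast cell marker rows, 7, 6 and 7 were below 1 FPKM in both lines. The myeloid rows summed to 36.1 FPKM in J2E and 28.7 in J2E-KLF3-ER, the megakaryocyte rows to 167 and 189, and the mast cell rows, nearly all from Gata2, to 101 and 68.9. The erythroid rows summed to 869 and 636 FPKM. Klf3 itself stood at 7.46 FPKM in J2E and 180 FPKM in J2E-KLF3-ER, a row in which fusion and resident transcripts are not separated. Each FPKM value is the authors' single value for a line, so no spread between libraries can be set beside it. In such bulk samples fewer cells making an RNA and less RNA per cell cannot be told apart.

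The peaks were narrow and mostly of moderate height. Peak height is given as the authors' enrichment over input, which ranged from 2.93 to 47.5 with a median of 7.94 and quartiles of 6.12 and 11.2. The intervals were 175 to 1847 bp wide, with a median of 272 bp. A single summit was listed for 3903 intervals, 2 for 305 and 3 for 22. In the 327 intervals with several summits, neighbouring summits were a median of 301 bp apart, at least 22 bp and at most 803 bp. These intervals were wider, with a median of 573 bp against 262 bp, and their highest summit had a median enrichment of 9.42 against 8.02. The summit lay close to the middle of its interval, at a median of 49.6% of the width.

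KLF3 summits gathered just before start sites. A summit was within 1 kb of its closest start site for 3719 peaks, and 2548 of these (68.5%) were upstream, 1166 (31.4%) downstream and 5 at the start itself. The median position of these summits was 53 bp upstream. Of all listed peaks, 37.8% were within 100 bp and 60.4% within 250 bp of a start site. The 100 bp before the start held 1331 summits and the 100 bp after it 393. Heights followed the same side: the median enrichment was 8.81 in the 100 bp before the start, 7.63 in the 100 bp after it and 6.71 at 100 to 250 bp after it. Peaks beyond 1 kb had medians of 7.34 upstream and 7.30 downstream.

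**Figure D1:**
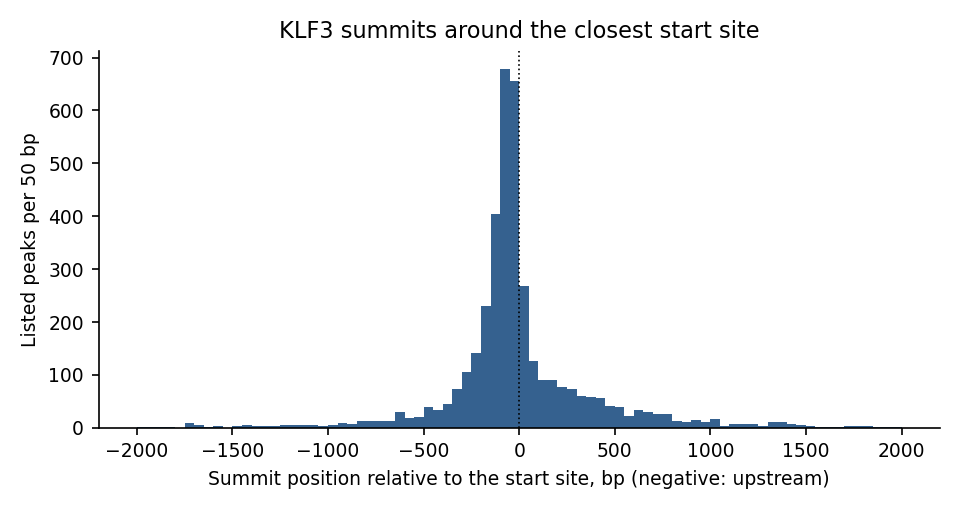
Number of listed KLF3 peaks per 50 bp (vertical axis) by summit position relative to the closest start site in bp (horizontal axis, negative is upstream). The counts peak just upstream of the start site, with 1331 summits in the 100 bp before it and 393 in the 100 bp after it.

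The authors' class of a peak did not follow distance alone. Their promoter class took 3043 peaks (66.5%), and all 2946 summits from 1000 bp upstream to 100 bp downstream of the closest start site were in it. A further 676 peaks within 1 kb carried another class, and all 676 lay downstream of the start. Of the 838 intron peaks, 481 (57.4%) were within 1 kb of a start site, as were 142 of 173 UTR peaks and 51 of 86 CDS peaks. For the KLF1 list the same class had 272 of 1418 intron peaks (19.2%) within 1 kb. Factor, line and antibody all differ between the 2 lists and cannot be told apart. Only 36 KLF3 peaks (0.786%) were intergenic and 403 (8.80%) distal. Medians of enrichment were 8.49 in the promoter class, 7.53 in the distal, 7.11 in the intergenic, 7.05 in the intron, 6.83 in the UTR and 6.14 in the CDS class.

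The highest peaks lay at genes of unlike function. After the 5 highest, between 47.5 and 39.5 at Cbwd1, Ppp1r15b, Oxsr1, Hnrpll and Brpf1, came Tob2, which encodes an antiproliferative protein of mRNA deadenylation, at 38.0. The Tob2 interval is chr15:81688624-81688996 on mm9, the build of all peak positions. Serac1, a gene of phospholipid remodelling, followed at 37.8, then Mapk9, the gene of the kinase JNK2, at 37.6. Slc3a2, which encodes the heavy chain of the CD98 amino acid transporter, and Sde2, a gene of the replication stress response, both had an enrichment of 35.7. All 10 were in the promoter class and overlapped a KLF1 peak. Their RNA levels in J2E ranged from 4.24 FPKM for Serac1 to 111 FPKM for Ppp1r15b, which encodes a subunit that directs dephosphorylation of the initiation factor eIF2 alpha. The 5 lowest named intervals were at Athl1 (3.65), Fubp3 (3.504), Znhit1 (3.39), Tubb2a (3.36) and Fam214b (3.28), all within 1 kb of a start site as well.

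The highest distal peak lay 13584 bp downstream of the start of Zdhhc19, a palmitoyltransferase gene, at chr16:32509763-32510158 (mm9), with an enrichment of 35.5. Distal peaks of 32.8 and 28.0 lay 6472 bp upstream of Trappc9 and 3094 bp upstream of Nfe2, the gene of the erythroid p45 subunit of NF-E2, the latter at chr15:103088752-103089247 (mm9). The highest intron peaks were at Zfp389 (33.3), the initiation factor gene Eif1 (28.6) and the iron-sulfur assembly gene Iba57 (25.3), and their summits were 169, 473 and 407 bp after the start. The highest UTR peaks were at the ubiquitin ligase gene Herc4 (30.1), Ier2 (29.8) and Xbp1 (24.4), a factor gene of the unfolded protein response. The highest CDS peaks were at Klf1 (26.6), Phlda1 (23.9) and Man2c1 (21.5). The intergenic class reached 14.1, and its highest named gene was Fam92b at 13.2, a gene at 0 FPKM in J2E and 0.0815 FPKM in J2E-KLF3-ER.

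Higher peaks lay more often at start sites and on KLF1 peaks. Over 10 near-equal groups of the list by enrichment, the share within 1 kb was 79.5% (95% exact interval 75.5 to 83.1) in the lowest and 89.7% (86.6 to 92.4) in the highest. It was lowest, at 77.1%, in group 3. A KLF1 peak was overlapped by at least 1 bp in 29.4% (25.3 to 33.8) of the lowest group, between 23.7% and 26.8% of groups 2 to 5, and 60.9% (56.3 to 65.4) of the highest. Width moved with height: the median was 256 bp in the lowest, 226.5 bp in group 3 and 375 bp in the highest group. Its part in the overlap was not tested. Position mattered too, since 28.6% of summits in the 100 bp before a start overlapped a KLF1 peak, against 47.1% of those more than 1 kb upstream.

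**Figure D2:**
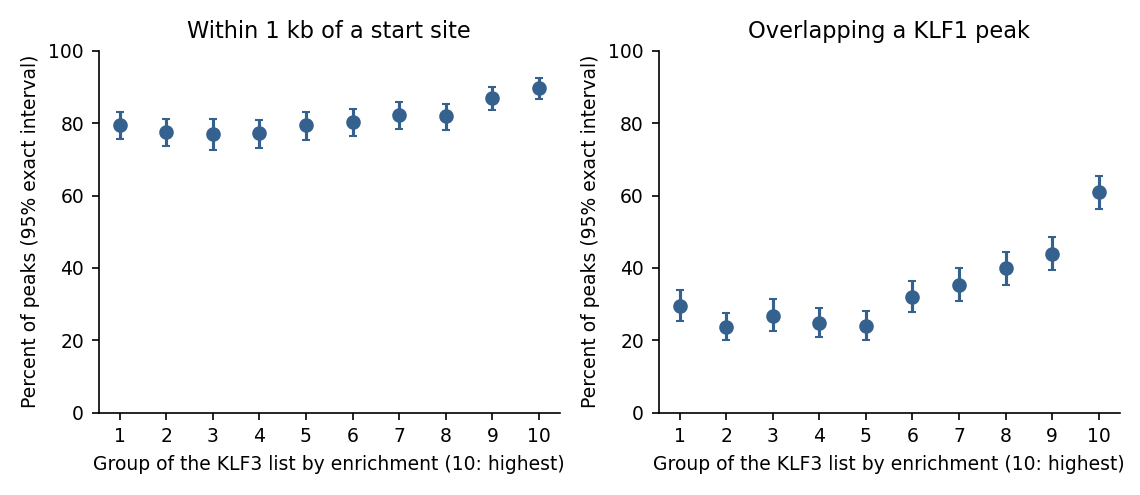
Percent of KLF3 peaks within 1 kb of a start site (left) and overlapping a KLF1 peak (right), over 10 groups of the list by enrichment, with points for the share and bars for 95% exact intervals. The overlap rises from 24.0% in group 5 to 60.9% in the highest, while the share near start sites moves between 77.1% and 89.7%.

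Most bound genes had 1 interval. Of the 3760 genes, 3344 (88.9%) had 1 distinct interval, 358 had 2, and 58 had 3 or more. In the KLF1 list 629 of 2773 genes (22.7%) had 2 or more, against 416 (11.1%) here. Gse1 stood alone with 9 intervals, spread from 119768 bp upstream to 10246 bp downstream of its annotated starts and from 4.15 to 14.0 in enrichment. Brd2, a bromodomain gene of the BET family, had 5 intervals that all lay within 1 kb of a start site. The 5 intervals of Lmna, the lamin A and C gene, included an intron peak of 17.2 and a distal one of 16.3, 15393 bp downstream. Lyl1, the gene of a basic helix-loop-helix factor of blood cells, also had 5, the highest (16.6) at 272 bp after its start. Irf2bpl had 5, of which 4 were between 47958 and 60586 bp from the start, and its RNA stood at 1.80 FPKM in J2E. Zfpm1, which encodes the GATA1 partner FOG1, had 4 with the highest at its promoter (22.7). Gata2, Junb, Mnt, Rbx1, Dhrs3 and Vgf had 4 each.

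Binding followed RNA level up to a point. A KLF3 peak within 1 kb was assigned to 2794 of the 9619 genes that the authors tested (29.0%, 95% exact interval 28.1 to 30.0), and to 439 of 13690 genes that were not tested (3.21%). By level in J2E, the share was 0.907% of 10809 genes below 0.5 FPKM, 21.8% at 2 to 4 FPKM and 33.9% (31.1 to 36.8) at 32 to 64 FPKM. Above that it was lower, at 27.3% of 395 genes from 64 to 128 FPKM and 17.9% (13.7 to 22.7) of 302 genes at 128 FPKM or more. In J2E-KLF3-ER the highest share was 32.5% at 16 to 32 FPKM, and that of the top class was 17.0%. The medians hide this shape: tested genes with a peak within 1 kb had a median of 13.8 FPKM in J2E and 13.5 in J2E-KLF3-ER, and all tested genes had a median of 12.4 FPKM in J2E. Of the genes with any peak, 646 were not tested, and 299 of these were below 1 FPKM in both lines.

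**Figure D3:**
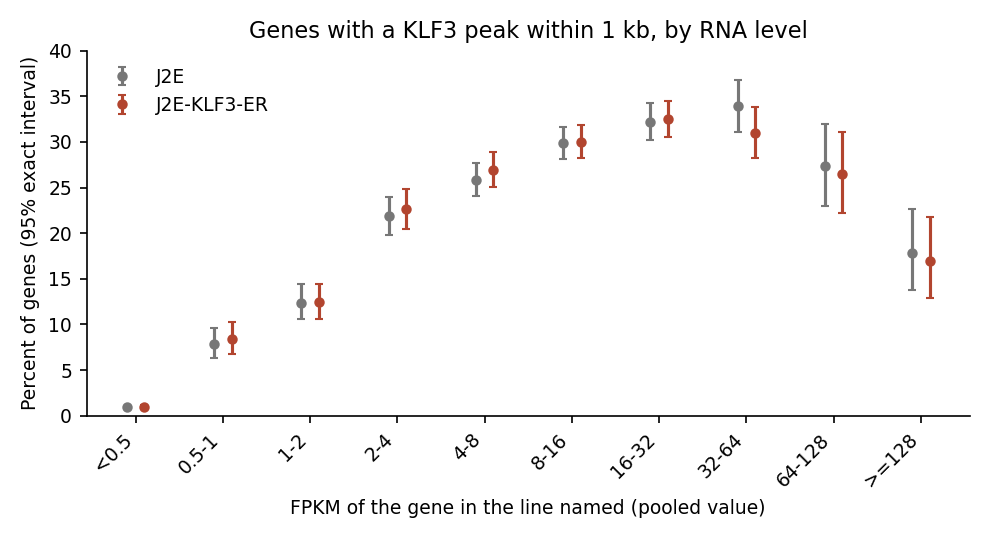
Percent of genes with a KLF3 peak within 1 kb (vertical axis) by class of FPKM in J2E (grey) and J2E-KLF3-ER (red), each a pooled value of its line, with bars for 95% exact intervals. The share rises to 33.9% at 32 to 64 FPKM in J2E and is 17.9% in the highest class.

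Abundant RNAs fell on both sides, in rankings of named genes that leave out joined rows and genes with peaks only beyond 1 kb. The highest level of a tested translation factor row in J2E, 1236 FPKM, is in neither ranking. Among named genes with a peak within 1 kb, the highest levels in J2E were those of Add2, the beta-adducin gene of the red cell membrane skeleton (984 FPKM, enrichment 5.29), the nuclear noncoding RNA gene Malat1 (807 FPKM, 5.26) and the nucleolar gene Npm1 (480 FPKM, 10.3). Actb (453 FPKM, 14.9), Hspa8 (394 FPKM, 8.40) and Hsp90aa1 (393 FPKM, 18.9) came next. The highest named genes without any KLF3 peak were the histone gene Hist2h2bb (897 FPKM), Zufsp (787 FPKM), the histone genes Hist1h4d (744 FPKM) and Hist2h4 (667 FPKM), the beta-globin row Beta-s (453 FPKM) and Mat2a, the gene of a methionine adenosyltransferase (395 FPKM). Histone and globin genes have near-identical copies, so both their levels and their peaks are uncertain.

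By chromosome, the share of tested genes with a promoter peak ran from 18.8% of 298 genes on X (95% exact interval 14.5 to 23.7) and 23.9% of 465 on chromosome 3 (20.1 to 28.0) to 33.9% of 611 on chromosome 5 (30.1 to 37.8). The intervals of X and chromosome 3 lay below the share over all tested genes, and that of chromosome 5 above it.

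Some promoters serve 2 genes. Start sites on opposite strands within 1 kb of each other were taken from neighbouring genes of the RefSeq annotation on GRCm38.p6. Of 3055 matched peaks within 1 kb, 688 (22.5%, 95% exact interval 21.0 to 24.0) were at such promoters, with a median enrichment of 8.39 against 8.02 for the rest. The authors gave each peak to 1 gene, so the other gene of a pair could be left without one. Counted by gene, 25.8% (24.8 to 26.8) of the matched tested genes had an opposite start site, as had 21.1% (19.5 to 22.8) of those with a KLF3 peak within 1 kb and 28.4% (27.1 to 29.6) of those with no peak. A promoter peak was assigned to 22.4% of 1650 tested genes with a divergent neighbour. Counted by pair, 34.3% (30.2 to 38.6) of 519 divergent pairs had one at either gene, against 32.01% (30.8 to 33.2) of 5649 genes without an opposite start site. Both genes of the pair had a peak in 3.66%. The highest were at Serac1 with Gtf2h5 (37.8), Bag1 with Chmp5 (28.5), Mettl8 with Dcaf17 (27.8), Mrps18b with Ppp1r10 (26.8) and Jmjd6 with Mettl23 (26.4), and only Ppp1r10 of these neighbours had an interval of its own.

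Gene lists differed widely in how many of their members were bound at the promoter. Shares are of tested members, to be read beside 29.0% over all tested genes. The highest shares were those of glycolysis, with 10 of 16 genes (62.5%, 95% exact interval 35.4 to 84.8), the BCL2 family, with 7 of 13 (53.8%, 25.1 to 80.8), and autophagy, with 14 of 28 (95% exact interval 30.6 to 69.4). The interval of the BCL2 family includes the share over all tested genes. In glycolysis the highest peak was at Pkm (15.7), a pyruvate kinase gene, and Eno3 (15.4) and the red cell pyruvate kinase gene Pklr (10.9) had peaks beyond 1 kb. Autophagy peaks were highest at Optn (20.6), a receptor gene of mitophagy, Atg4d (19.8), Wipi1 (17.3) and Ulk1 (12.5), the gene of the initiating kinase. In the BCL2 family they were highest at Bnip3l (16.9), which encodes the NIX receptor by which maturing red cells clear mitochondria, and at Bid (15.3), followed by the survival genes Bcl2l1 (9.75) and Mcl1 (7.01).

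Translation was split between its factors and its ribosome. Promoter peaks stood at 30 of 63 translation factor genes (47.6%, 34.9 to 60.6), among them Etf1 (22.1), a release factor gene, Eif3e (20.01) and Eif5a (18.2). They stood at 10 of 79 cytosolic ribosomal protein genes (12.7%, 6.24 to 22.0) and 13 of 76 mitochondrial ones (17.1%, 9.43 to 27.5). The highest cytosolic ones were at Rps23 (25.5), Rpl31 (19.8) and Rpl12 (15.6). By the highest peak of each bound gene, the median enrichment was 13.3 in the cytosolic and 8.04 in the mitochondrial list. Other lists of core machinery were low as well, with 8 of 81 oxidative phosphorylation genes (9.88%, 4.36 to 18.5), 4 of 39 proteasome genes (10.3%) and 3 of 65 core histone genes (4.62%). In oxidative phosphorylation the highest peak was at Ndufb4 (25.9), a complex I subunit gene, and in the proteasome list at Psme2 (12.04). The spliceosome list had 17 of 76 (22.4%), led by Hnrpll (40.1). The shares did not follow RNA level across these lists. The median J2E level was 118 FPKM for cytosolic ribosomal protein genes and 82.5 for core histones, but 17.7 for oxidative phosphorylation, 13.8 for mitochondrial ribosomal proteins and 29.1 for the proteasome, and 37.0 for translation factors.

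Promoter peaks stood at 35 of 88 chromatin modifier genes (39.8%, 29.5 to 50.8), led by Brpf1 (39.5), a scaffold gene of histone acetyltransferase complexes, and Mll1 (19.4), a histone methyltransferase gene. They stood at 59 of 152 solute carrier genes (38.8%, 31.0 to 47.0), with Slc44a2 (29.0) after Slc3a2. Of the genes of the KLF3 corepressor complex, 5 of 13 had one (38.5%, 13.9 to 68.4), the highest at Cdyl (10.9), the methyltransferase gene Ehmt2 (8.57) and Ctbp2 (7.90). G1/S genes had 14 of 37 (37.8%, 22.5 to 55.2), led at promoters by Cdk4 (17.6), Tfdp2 (15.3) and E2f1 (14.9). The intervals of these 2 lists include the share over all tested genes. The zinc finger genes named Zfp had 54 of 219 (24.7%, 19.1 to 30.9), heat shock and chaperonin genes 16 of 57 (28.1%) and ubiquitin conjugation genes 9 of 31 (29.0%), with Ube2z (16.9) highest in the last.

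**Figure D4:**
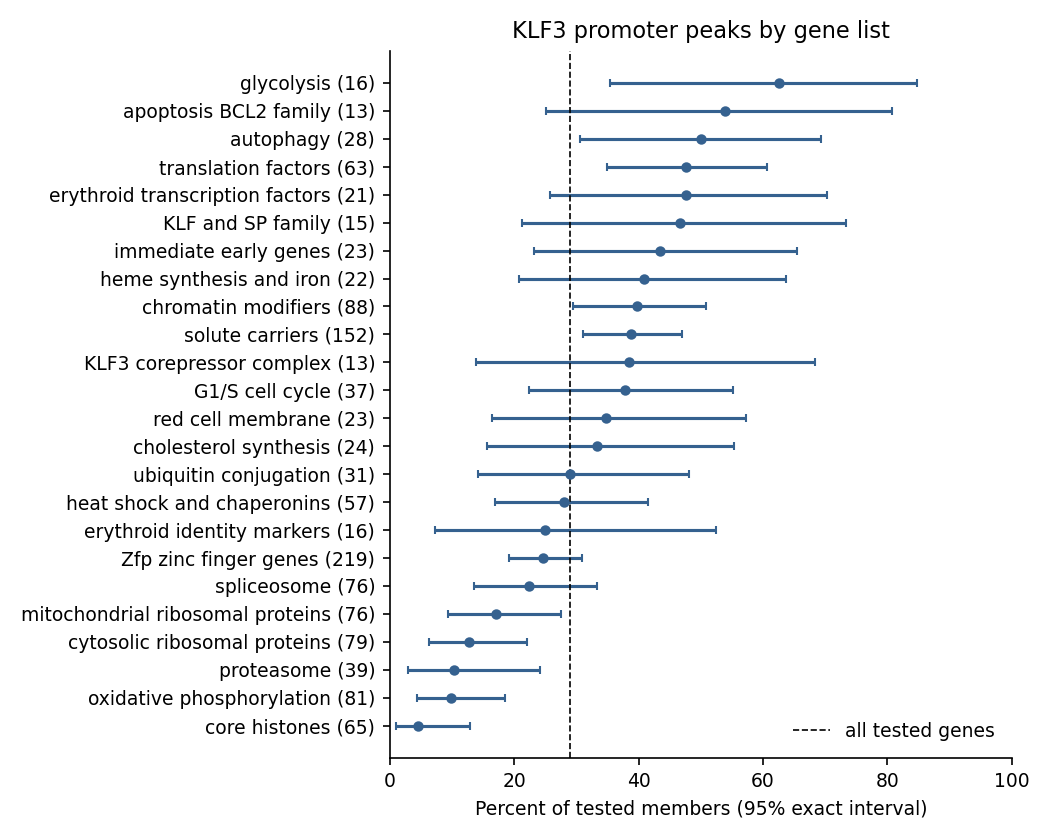
Percent of tested members of each gene list with a KLF3 peak within 1 kb (points) with 95% exact intervals (bars), the number of tested members in parentheses and the share over all tested genes as a dashed line. Glycolysis stands at 62.5% and core histones at 4.62%, beside 29.0% of all tested genes.

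Erythroid genes were bound both at promoters and at a distance. Of 21 erythroid transcription factor genes, 10 had a peak within 1 kb (47.6%, 95% exact interval 25.7 to 70.2). A further 7 (33.3%) had one only beyond it, where 320 of 9619 tested genes had peaks only beyond 1 kb. The promoter peaks included those of Zfpm1, Ldb1 (20.1), a bridging gene of the TAL1 complex, Tcf3 (19.2) and Gata1 (14.6). The heme and iron list had 9 of 22 at promoters (40.9%, 20.7 to 63.6). Among these were Fth1 (22.3) of the ferritin heavy chain, Tfrc (17.3) of the transferrin receptor and Tfr2 (13.7), while the peak of Ftl1 (14.9) was 1132 bp upstream. The red cell membrane list had 8 of 23 (34.8%, 16.4 to 57.3), with Add1 (24.1) of alpha-adducin and Epb4.1 (19.1) of protein 4.1 highest. The 7 tested globin rows had 1 (14.3%, 0.361 to 57.9), the joined alpha-globin row at 3.12, and the untested Hbb-y row had a distal peak of 8.81. Cholesterol synthesis genes had 8 of 24 (33.3%, 15.6 to 55.3), led by Srebf2 (25.9), which encodes the activator of the pathway. In the family of KLF and SP genes, 7 of 15 had a promoter peak (46.7%, 21.3 to 73.4) and 4 more a peak beyond 1 kb. Sp4 (23.3), Klf16 (14.5) and Klf13 (13.2) had the highest promoter peaks of the family. For every list of this paragraph, the interval of the promoter share includes the 29.0% over all tested genes.

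Immediate early genes were the list most often bound beyond 1 kb. A peak at any distance was assigned to 20 of 23 (87.0%, 66.4 to 97.2), against 32.4% of all tested genes. Within 1 kb it was assigned to 10 (43.5%, 23.2 to 65.5), an interval that includes the 29.0% of all tested genes. Another 10 (43.5%) had peaks only farther out, as had 320 of all 9619 tested genes. The highest were at Ier2 (29.8), whose summit was 1159 bp after the start, Btg2 (25.1), 13907 bp upstream, Egr1 (17.2) at the promoter and Zfp36 (12.7), 1966 bp upstream.

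The comparison of RNA asked whether bound genes differ in output between J2E and J2E-KLF3-ER. Calls are the authors' q below 0.05, by which 1.9% of tested genes fell and 0.821% rose in J2E-KLF3-ER. A larger share of bound genes fell: of genes with 1 interval 65 of 2743 fell (2.37%, 95% exact interval 1.83 to 3.01), and of those without an assigned peak 91 of 6505 (1.399%, 1.13 to 1.71). Those without one include 201 divergent neighbours of genes with a KLF3 promoter peak, of which 1 fell (0.498%) and 2 rose (0.995%). With 2 intervals 17 of 319 fell (5.33%, 3.13 to 8.40), and with 3 or more 10 of 52 (19.2%, 9.63 to 32.5). Rising genes were 63 of those without a peak (0.968%), 13 of those with 1 interval (0.474%) and 3 of the 371 with 2 or more. Peak height at the promoter made less difference. Over 4 groups by enrichment, from the lowest up, 15 of 699 (2.15%), 12 of 700 (1.71%), 22 of 696 (3.16%) and 23 of 699 (3.29%, 2.10 to 4.896) fell. A KLF1 peak was assigned to 28.6% of genes in the lowest group and 56.8% in the highest, and its part was not tested. Where all peaks were beyond 1 kb, 20 of 320 fell (6.25%, 3.86 to 9.49).

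**Figure D5:**
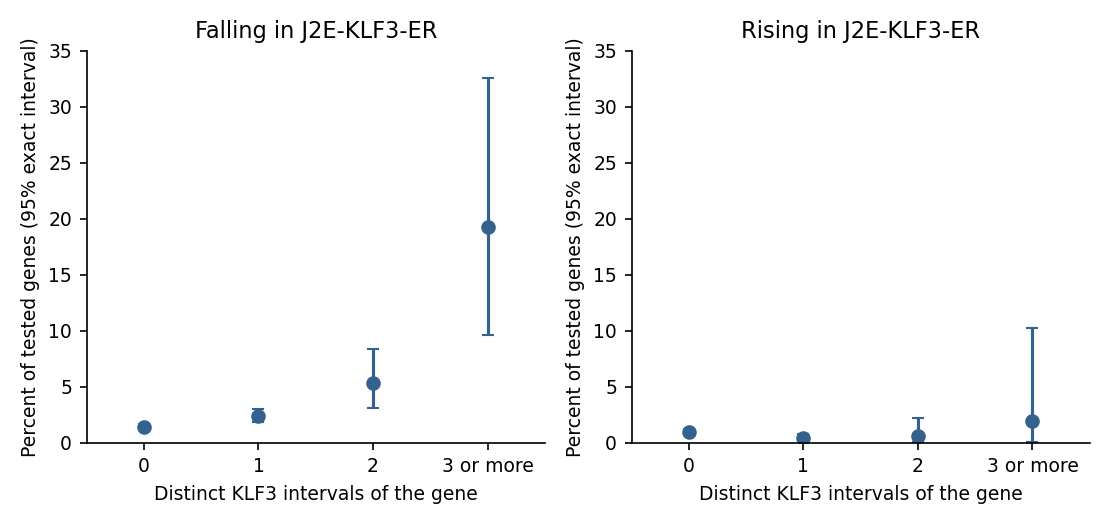
Percent of tested genes that fell (left) or rose (right) in J2E-KLF3-ER by the authors' q below 0.05, by number of distinct KLF3 intervals assigned to the gene, with bars for 95% exact intervals. The falling share is 1.399% without a peak and 19.2% with 3 or more intervals, and the rising share is 0.968% and 1.92%.

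The increase with interval number was not even across the genome or across expression levels, in groupings made after the values were seen. On chromosomes 2 to 9 and X, where the fold changes as a whole lie lower, 42 of 3339 genes without a peak fell (1.26%), 47 of 1408 with 1 interval (3.34%) and 8 of 30 with 3 or more (26.7%, 12.3 to 45.9). On chromosomes 1 and 10 to 19 the counts were 49 of 3166 (1.55%), 18 of 1335 (1.35%) and 2 of 22 (9.09%, 1.12 to 29.2). There the falling share with 1 interval was no higher than without a peak, while with 2 or more 8 of 180 fell (4.44%, 1.94 to 8.57). On chromosomes 2 to 9 and X, 19 of 191 with 2 or more fell (9.95%). In the authors' deposited table, the median log2 fold change of genes with any peak was -0.10 on chromosomes 2 to 9 and X. It was 0.09 on chromosomes 1 and 10 to 19, and the medians of all tested genes were -0.03 and 0.11. The median J2E level of all tested genes was 15.8 FPKM on the former chromosomes and 9.79 on the latter. The groupings by chromosome and by level are thus not independent. Below 16 FPKM in J2E, 1.38% of genes without a peak, 1.36% with 1 interval and 3.18% with 2 or more fell. At 16 FPKM or more the shares were 1.43%, 3.81% (2.77 to 5.10) and 10.3% (6.56 to 15.2). Genes with 3 or more intervals had a median of 28.2 FPKM in J2E.

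A KLF1 peak at the same gene moved with the calls as well. Among genes with 1 KLF3 interval, 40 of 1008 with an assigned KLF1 peak fell (3.97%, 2.85 to 5.36) and 25 of 1735 without one (1.44%, 0.935 to 2.12). The latter share is close to the 77 of 5924 (1.30%) among genes with neither peak. Among genes with a KLF1 peak and no KLF3 peak, 14 of 581 fell (2.41%, 1.32 to 4.01), an interval that overlaps that of genes with both. With 2 or more KLF3 intervals the shares were 21 of 250 (8.40%) with and 6 of 121 (4.96%, 1.84 to 10.5) without a KLF1 peak. Of the 52 tested genes with 3 or more KLF3 intervals, 45 had a KLF1 peak. The parts of level, chromosome and KLF1 binding in the falling share were not separated from one another.

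The 10 falling genes with 3 or more intervals, named after their values were seen, were Lmna, Junb, Gata2, Btg2, Sertad1, Map3k6, Zfp36, Sox12, Impdh1 and Zbtb7a. Sertad1, a cell cycle co-regulator gene, went from 41.8 to 14.8 FPKM, and the authors' deposited table gives -1.50 as its log2 fold change (q = 0.00408). Btg2, an antiproliferative gene of mRNA decay, went from 18.3 to 8.20 FPKM, and Junb, an AP-1 subunit gene, from 65.05 to 33.7 FPKM, and the authors' deposited table gives log2 fold changes of -1.16 and -0.95. Zbtb7a, a repressor gene of fetal globin, went from 51.3 to 26.7 FPKM. Gata2, the gene of a GATA factor of early progenitors, went from 99.0 to 67.4 FPKM, and the authors' deposited table gives -0.55 as its log2 fold change. Gse1, with the most intervals of any gene, was not called (-0.15 on the log2 scale, q = 0.695 in the authors' deposited table), nor was Lyl1 (-0.01, q = 0.993). Ptma was the 1 such gene that rose, and the authors' deposited table gives 0.53 as its log2 fold change.

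With a peak within 1 kb, the falling genes with the highest peaks were Pole4 (31.1, at chr6:82602428-82603128 on mm9), a DNA polymerase epsilon subunit gene, Fdxacb1 (28.5), Zfp28 (28.3), Xbp1 (24.4) and Sertad1 (21.5). Pole4 went from 26.4 to 14.3 FPKM and Xbp1 from 18.0 to 9.32 FPKM, for which the authors' deposited table gives log2 fold changes of -0.88 and -0.95. Mid1ip1 (21.2), a gene that promotes fatty acid synthesis, went from 8.81 to 2.51 FPKM, or -1.81 on the log2 scale by the authors' deposited table. Cep55, Klhl21, Lmna, Ccnl1, Ankrd10 and Map3k6 followed with enrichments from 18.2 to 15.99. Of these 12, Xbp1 alone did not overlap a KLF1 peak, where 60.9% of the highest of the 10 groups by enrichment overlapped one. The rising genes with the highest promoter peaks included the ribosomal protein genes Rps23 (25.5) and Rps16 (14.5) and the elongation factor gene Eef2 (14.7). Among the 79 tested cytosolic ribosomal protein genes 7 rose, where the rising share over the whole tested set was 0.821%. KLF3 binding at any distance was listed for 2 of these 7. It was listed for 12 of the 79 (15.2%), beside 32.4% over the whole tested set. Rps23 went from 62.3 to 124 FPKM, or 0.99 on the log2 scale by the authors' deposited table. Gas5 (18.8), a host gene of small nucleolar RNAs, Zfp62 (15.5), Polr2e (14.2) and Arrb2 were also among them, and Rps23, Gas5 and Zfp62 overlapped a KLF1 peak.

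Among falling genes with peaks only beyond 1 kb, named after their values were seen, the highest peaks were at Ier2 (29.8), Klf1 (26.6), E2f2 (13.2) and Pklr (10.9). Klf1 went from 122 to 55.6 FPKM, and the part of this lower level in the other falling genes was not tested. Ier2 went from 165 to 87.4 FPKM, and Pklr from 27.2 to 15.9 FPKM, for which the authors' deposited table gives log2 fold changes of -0.92 and -0.78. Slc4a1, the band 3 anion exchanger gene of the red cell membrane, had a peak of 6.58 and went from 39.2 to 20.8 FPKM, or -0.91 on the log2 scale by the authors' deposited table. Klf10 had 1 peak (7.68) and Myc 1 (5.23), and their levels went from 47.2 to 12.5 FPKM and from 9.67 to 3.18 FPKM. The rising genes of this kind were Hist1h2bj (16.2), Scd1 (13.4) and Ahcy (7.43). Every J2E-KLF3-ER RNA library had tamoxifen, so the line, its clones and the activated fusion cannot be told apart.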

How the data were processed

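The members and gene lists were chosen with earlier results of these data known. The submitters' processing notes name mm9 as the build and TopHat2 2.0.10, MACS 1.4.2 and MACS2 as tools. Which of them made which file, and the tool of the RNA test, are not stated in the sources used here. Each deposited peak has an enrichment ratio over input, an annotation class, and a signed distance to the closest start site, recorded here as a score; the authors' peaks came from a library of pooled immunoprecipitations, per the labels' protocols. Per the file headers, the RNA table gives FPKM as 1 pooled value per line, the authors' log2 fold change, p-value, q-value and a test statistic score. Separate cultures are not stated for the J2E libraries, and their p-values may then reflect technical spread alone. The depth of every library is unknown here.

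Intervals were counted once per chromosome, start and end. The RNA table has 23309 named genes (9619 tested, 13530 not tested, 158 with too little and 2 with too much data) and 93 blank rows, which were dropped. All 3760 genes of the list had a row, 3 of them in joined rows. In the KLF1 list 13 dates were taken as the March and Sept genes they had replaced. The sign of a distance was taken from strand and coordinates. Intervals on shares are 95% exact (Clopper-Pearson) and cover only counting error; binding has no replicate and so no test. Promoter sequences are RefSeq's (GRCm38.p6), matched by symbol: 23063 rows matched a symbol and 14850 had 1 entry. Motifs were searched on both strands. No column marks bidirectional promoters, so neighbouring start sites on GRCm38.p6 were used, as names only. Unused per-sample columns numbered 0.

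The named genes are the 10 highest and 5 lowest intervals, the 3 highest of each class, the 6 genes with most intervals, the 5 highest bidirectional peaks, up to 4 members per list, the 12 falling and 8 rising genes with the highest peak within 1 kb, the 6 highest FPKM with a promoter peak and the 6 without any, Klf3 and Klf1, leaving out unnamed models, small RNAs and joined rows. Other genes named were chosen after their values were seen. One gene chosen this way is not reported here. Alternatives covered the unit counted, window, enrichment, q, FPKM minimum, pseudocount, overlap, motif and chromosomes. Overlaps, summit gaps, motif search and interval coverage were tested on simulated data. Python 3.11.15, pandas 2.3.3, NumPy 2.4.6, SciPy 1.17.1 and matplotlib 3.10.9 were used.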

Additional observations from a re-analysis of the deposited data

How the results depend on the processing

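No paired analysis was possible because the RNA table holds 1 pooled value per line, so no library could be left out or blocked, the ethanol-treated J2E library included. The share of peaks within 1 kb of a start site, 81.2%, was 84.2% among peaks at or above the median enrichment, 73.3% with a window of 500 bp and 88.5% with 5 kb, and the median distance, 159 bp, was 125 bp among those. Genes with 2 or more intervals, 416, were 667 by listed peaks and 201 within 1 kb only, and bound genes, 3760, were 2115 among peaks at or above the median enrichment. Tested genes with a promoter peak, 29.0%, were 27.3% of genes at 1 FPKM or more in both lines, 27.2% with 500 bp and 32.4% at any distance. The median FPKM of promoter-bound genes, 13.8 and 13.5, was 11.4 in J2E and 11.03 in J2E-KLF3-ER over all named genes. Falling bound genes, 92 of 3114 (2.95%, beside 1.9% of all tested genes), were 26 of 1515 (1.72%) on chromosomes 1 and 10 to 19. On those chromosomes 75 of all 4681 tested genes fell (1.60%). Rising bound genes, 16 of 3114 (0.514%, beside 0.821% of all tested genes), were 8 at a q below 0.01, for which the share over all tested genes is not given here. Overlap with KLF1 peaks, 34.0%, was 30.6% when it had to cover at least 50% of the KLF3 peak, 28.8% by summits within 100 bp and 42.4% among peaks at or above the median. The share of bound promoters with the box, 69.0% for CACCC, was 5.21% for CCACACCC and, in alternatives chosen after seeing the data, 30.7% for CACGCCC, 91.3% for the GC box and 73.3% with any number of promoter entries. The other alternatives stayed within the interval of the value, or within 1.5 times for counts. With 1 pooled library and no read counts, neither the precision of a peak's height nor a missed peak can be judged.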
